A study of Mus musculus with 4 samples.

Results

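Eif2s3x, Ddx3x, Kdm5c, Kdm6a, 5530601H04Rik, Pbdc1 and Tmem29 are 7 X-linked mouse genes known to escape X inactivation, that is, to be transcribed also from the silenced X chromosome. They were picked by symbol out of 46320 gene identifiers, 2607 of them X-linked, after their reads from the silenced chromosome in these libraries were known. The shares of those reads are therefore given as a description, with no test. Prefrontal cortex of female C57BL6J/Spretus hybrid mice aged 14 weeks was profiled by RNA-seq and by MethylC-seq, which reads methylation at single cytosines after bisulfite treatment. All animals carried an Xist mutation on their maternal allele, and no library without the mutation was included. There were 2 RNA libraries and 2 methylation libraries, from tissue pooled over 2 animals of separate litters, and the methylation libraries were separate amplifications of the same converted DNA. Nothing says that the RNA libraries came from different animals, so their spread may be technical. With the strain label taken to name the mother first, Spretus is the allele on the silenced paternal X chromosome and C57 the allele on the active maternal one.

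X inactivation makes the X-linked gene dose of females similar to that of males. Xist, a noncoding RNA, coats the chromosome it is made from, repressive chromatin follows, and CG-rich promoters on that chromosome gain DNA methylation. An X chromosome that lacks a working Xist cannot be silenced in this way, so in these animals every cell is expected to keep the C57 X chromosome active. Escape genes keep some transcription from the silenced chromosome, and many of them had or still have a partner gene on the Y chromosome. Eif2s3x, Ddx3x, Kdm5c and Kdm6a have such partners in the mouse, named Eif2s3y, Ddx3y, Kdm5d and Uty.

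The promoters of Eif2s3x, Ddx3x, Kdm5c and Kdm6a are shown because these are the genes with a Y-linked partner, and no region of higher Spretus methylation was listed over these promoters. The windows run from 250 bases before to 50 after the RefSeq start, in build GRCm38.p6 (the mm10 build), with CG, the dinucleotide that promoter methylation targets, in capitals. They lie at chrX:94212602-94212901 on the minus strand for Eif2s3x, and on the plus strand at chrX:13280772-13281071 for Ddx3x, chrX:152232977-152233276 for Kdm5c and chrX:18162325-18162624 for Kdm6a. These are C57 reference sequences, and the Spretus bases were not used here.
Eif2s3x: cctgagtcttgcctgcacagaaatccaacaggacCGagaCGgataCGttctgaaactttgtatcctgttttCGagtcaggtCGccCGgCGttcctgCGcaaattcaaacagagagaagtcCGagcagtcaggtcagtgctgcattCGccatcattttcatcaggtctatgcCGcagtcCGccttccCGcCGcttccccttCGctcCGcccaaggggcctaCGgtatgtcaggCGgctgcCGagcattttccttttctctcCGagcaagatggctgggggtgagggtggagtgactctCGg
Ddx3x: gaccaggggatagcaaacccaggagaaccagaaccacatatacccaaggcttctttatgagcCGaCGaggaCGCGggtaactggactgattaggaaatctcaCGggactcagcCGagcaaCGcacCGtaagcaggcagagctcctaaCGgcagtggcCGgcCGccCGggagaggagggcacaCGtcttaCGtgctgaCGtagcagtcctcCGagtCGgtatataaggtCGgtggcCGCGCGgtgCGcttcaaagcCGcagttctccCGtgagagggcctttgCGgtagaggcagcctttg
Kdm5c: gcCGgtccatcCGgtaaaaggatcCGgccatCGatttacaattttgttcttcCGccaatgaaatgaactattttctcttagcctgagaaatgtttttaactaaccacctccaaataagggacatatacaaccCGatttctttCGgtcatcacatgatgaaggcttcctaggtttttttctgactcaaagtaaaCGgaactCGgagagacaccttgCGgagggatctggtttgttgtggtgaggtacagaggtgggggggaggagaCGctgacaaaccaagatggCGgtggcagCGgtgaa
Kdm6a: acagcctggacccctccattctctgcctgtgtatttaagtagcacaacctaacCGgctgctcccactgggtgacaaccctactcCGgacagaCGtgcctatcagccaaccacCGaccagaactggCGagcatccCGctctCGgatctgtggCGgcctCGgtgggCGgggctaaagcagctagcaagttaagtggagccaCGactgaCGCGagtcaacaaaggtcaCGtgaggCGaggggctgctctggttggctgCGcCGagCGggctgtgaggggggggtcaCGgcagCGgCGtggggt

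The allele-assigned reads numbered 4768237 in RNA library 1 and 1291903 in library 2, so values of library 1 rest on 3.69 times as many reads. Of the autosomal reads, 47.9% in library 1 and 48.0% in library 2 were Spretus. For Xist, the mutated gene, library 1 held 2158 Spretus and 31 C57 reads, and library 2 held 795 and 9. Markers of neurons, astrocytes, oligodendrocytes, microglia and endothelium were present, with list medians from 10.8 to 455 FPKM in library 1 and from 1.90 to 107 FPKM in library 2. The lists did not differ alike between the libraries. The pan-neuronal median was 455 and 107 FPKM, and the oligodendrocyte median 116 and 12.6 FPKM. Ratios of the other lists named here lay between these, and whether cell make-up differed was not tested. Markers of choroid plexus and cerebellar granule cells had list medians of at most 0.327 FPKM in either library. Blood markers had a median of 189 FPKM in library 1 and 12.8 FPKM in library 2, and the part of blood in the values below was not tested.

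Eif2s3x, which encodes the gamma subunit of the factor that brings the initiator tRNA to the ribosome, drew the highest share of its reads from the silenced chromosome. At X 94188707 to 94212862 (ENSMUSG00000035150.14), library 1 held 103 Spretus and 143 C57 reads of it, and library 2 held 34 Spretus and 53 C57 reads. Its Spretus share was 41.9% in library 1 (exact 95% interval 35.6 to 48.3%) and 39.1% in library 2 (28.8 to 50.1%), a mean of 40.5% ± 1.97 (SD, n = 2). The silenced allele thus gave 72.0 reads for every 100 C57 reads in library 1 and 64.2 in library 2. Over summed reads the interval was 35.8 to 46.6%, with its upper end below the autosomal share. In bulk tissue, fewer cells using the silenced allele and less RNA from it in each cell cannot be told apart.

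Ddx3x, a DEAD-box RNA helicase gene of translation and RNA metabolism, stood next. It lies at X 13280970 to 13294052 (ENSMUSG00000000787.11), where 183 Spretus and 383 C57 reads were counted in library 1, and 63 Spretus and 151 C57 reads in library 2. The Spretus share was 32.3% in library 1 and 29.4% in library 2, a mean of 30.9% ± 2.05 (SD, n = 2). With 780 summed reads it was the most deeply read of the 7 genes, and its summed interval of 28.3 to 34.9% was the narrowest of them.

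The histone demethylase genes had similar shares. Kdm5c removes methyl groups that mark active promoters, and Kdm6a removes the methyl groups set by Polycomb. Kdm5c (X 152233020 to 152274535, ENSMUSG00000025332.13) had 134 Spretus reads and 371 C57 reads in library 1, and 28 Spretus reads and 77 C57 reads in library 2, which gave shares of 26.5% and 26.7%. Kdm6a (X 18162575 to 18279936, ENSMUSG00000037369.15) had 41 Spretus reads and 129 C57 reads in library 1, and 10 Spretus reads and 34 C57 reads in library 2, which gave 24.1% and 22.7%. The summed intervals, 23.1 to 30.3% for Kdm5c and 18.3 to 30.1% for Kdm6a, overlapped.

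The noncoding gene 5530601H04Rik and the protein-coding gene Pbdc1 are neighbours on opposite strands, with 146 bases between their loci. 5530601H04Rik (X 105037197 to 105079609, ENSMUSG00000087174.6) had 57 Spretus reads and 194 C57 reads in library 1, and 16 Spretus reads and 59 C57 reads in library 2. Its share was 22.7% and 21.3%, a mean of 22.0% ± 0.973 (SD, n = 2). Pbdc1 (X 105079756 to 105117090, ENSMUSG00000031226.12) had 32 Spretus reads and 97 C57 reads in library 1, but 2 Spretus reads and 26 C57 reads in library 2. In library 1 its share of 24.8% was thus close to that of its neighbour, while library 2 gave 7.14% with a wide exact 95% interval of 0.877 to 23.5%. Whether counting used strand is not given, so reads near the adjoining ends of these loci are of uncertain assignment.

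Tmem29, named as a transmembrane protein gene, had the lowest share. At X 150397773 to 150459154 (ENSMUSG00000041353.11), it had 27 Spretus reads and 169 C57 reads in library 1, and 2 Spretus reads and 42 C57 reads in library 2. The share was 13.8% in library 1 (exact 95% interval 9.28 to 19.4%) and 4.55% in library 2 (0.555 to 15.5%). Gm15129 overlaps Tmem29 and had no allele-assigned read in either library. No other gene of the tables overlapped any of the 7.

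**Figure D1:**
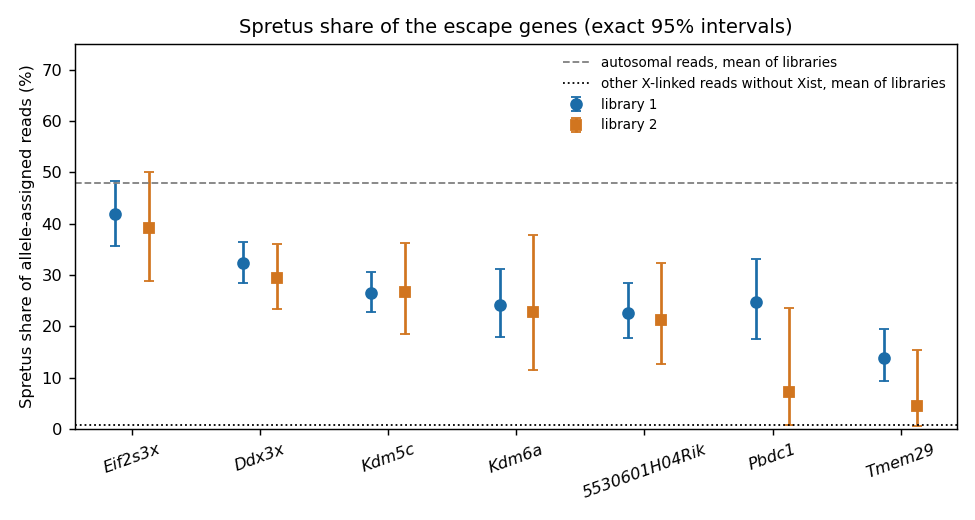
Share of allele-assigned reads from the silenced Spretus allele in percent, per gene and library, with points for the share and bars for exact 95% intervals. The dashed line is the autosomal mean and the dotted line the mean of other X-linked reads without Xist. Eif2s3x stands highest at 41.9% and 39.1%, and Pbdc1 and Tmem29 are the genes whose libraries lie farthest apart, at 24.8% and 7.14% and at 13.8% and 4.55%.

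The order by mean share was Eif2s3x, Ddx3x, Kdm5c, Kdm6a, 5530601H04Rik, Pbdc1 and Tmem29. Of neighbours in this order, Eif2s3x and Ddx3x alone had summed exact 95% intervals that did not overlap. Over all 21 pairs, the intervals were apart in 11, namely Eif2s3x above each other gene, Ddx3x above 5530601H04Rik and Tmem29, and Kdm5c, Kdm6a and 5530601H04Rik above Tmem29. Below Eif2s3x, the order of genes next to each other is therefore not resolved at this depth. In single libraries, the intervals of Eif2s3x and Ddx3x overlapped too. They were 35.6 to 48.3% and 28.5 to 36.4% in library 1. In library 2 they were 28.8 to 50.1% and 23.4 to 36.0%. The separation of Eif2s3x from Ddx3x thus rests on summed reads.

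Whether a gene gave the same Spretus share in each library was tested for the 10053 genes whose allele-assigned reads numbered 20 or more in library 1 and in library 2, by a two-sided Fisher's exact test and Benjamini-Hochberg adjustment. This compares these libraries and not conditions. None of the 7 genes was called, against 0 of all 10053 (0.00%), and 240 genes (2.39%) had an unadjusted p under 0.05. Pbdc1 was the only one of the 7 among those 240 (Fisher's exact test, two-sided, p = 0.0436, adjusted p = 1). Tmem29 had p = 0.123 (Fisher's exact test, two-sided, adjusted p = 1), and the other 5 genes had p of at least 0.490. With 28 reads for Pbdc1 and 44 for Tmem29 in library 2, the depth leaves their shares loosely fixed.

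An exact 95% interval above 2% in each library was found for 5 of the 7 genes, all but Pbdc1 and Tmem29, against 12 of 316 measured X-linked genes (3.80%), Xist among them. These are the values that led to the choice of the genes. A measured gene is one with 20 or more allele-assigned reads in library 1 and in library 2. In library 1 alone, all 7 lay above 2%. The X-linked reads outside the 7 genes and Xist had a Spretus share of 0.748% in library 1 (exact 95% interval 0.695 to 0.804%) and 0.695% in library 2 (0.604 to 0.795%). The 7 genes supplied 43.9% and 42.3% of the Spretus reads of the X chromosome without Xist, from 2.05% and 1.93% of its reads.

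FPKM, which counts both alleles together per kilobase of transcript and is meant to be scaled to the library's fragments, placed Ddx3x and Eif2s3x above the others. Ddx3x stood at 71.0 FPKM in library 1 and 18.6 FPKM in library 2, and Eif2s3x at 37.8 and 7.31 FPKM. FPKM was higher in library 1 for each gene, by 3.81 to 5.70 times, and the median ratio over measured X-linked genes was 5.32. The scale of FPKM thus differed between the libraries at large, for a reason that was not tested. FPKM values are therefore not comparable from library to library. Relative to the median FPKM of measured X-linked genes in the same library, Ddx3x was at 5.44 and 7.13 times, Eif2s3x at 2.89 and 2.80 times and Tmem29 at 1.25 and 1.61 times. Kdm5c, Kdm6a, 5530601H04Rik and Pbdc1 lay below that median in each library, between 0.503 and 0.962 times.

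Multiplying FPKM by the allele shares splits these levels into a Spretus and a C57 part, on the assumption that reads over strain differences stand for all reads of a gene. The Spretus part of Ddx3x came to 22.9 FPKM beside a C57 part of 48.0 FPKM in library 1, and to 5.48 beside 13.1 FPKM in library 2. For Eif2s3x the Spretus part was 15.8 FPKM and the C57 part 22.0 FPKM in library 1, and 2.86 and 4.46 FPKM in library 2. From the silenced chromosome alone, these genes thus stood above the whole level of the median measured X-linked gene, at 1.76 and 2.10 times that median for Ddx3x and 1.21 and 1.09 times for Eif2s3x. The Spretus parts of the other 5 genes came to between 0.0359 and 0.255 times that median.

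**Figure D2:**
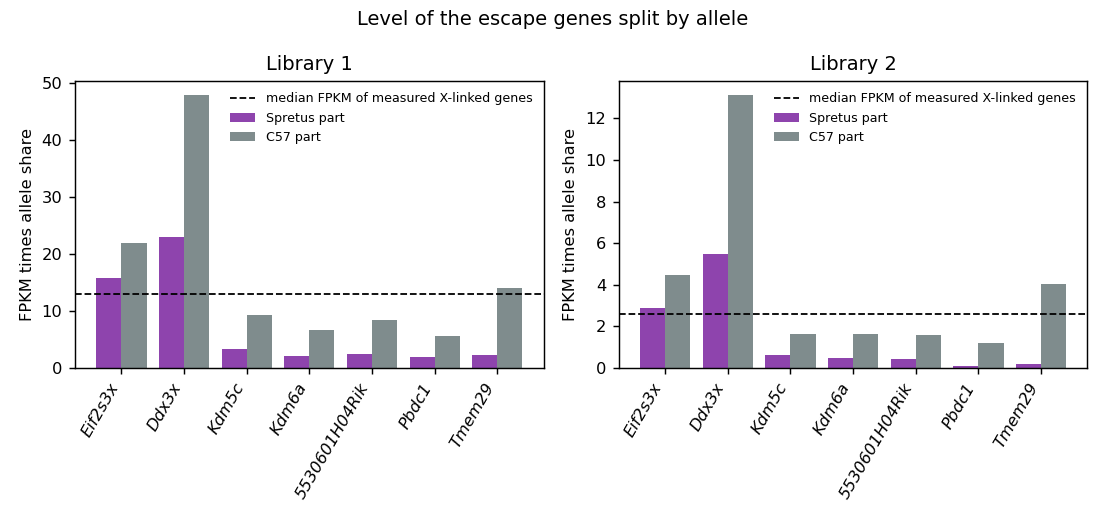
FPKM of each gene multiplied by its Spretus share (left bar) and by its C57 share (right bar), in library 1 and library 2, which have separate scales. The dashed line is the median FPKM of measured X-linked genes. The Spretus bars of Ddx3x and Eif2s3x reach above that line in each library, and those of the other genes do not. Counting error is not drawn.

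The Y-linked partners, which female mice lack, served as a check for reads from near-identical copies. Eif2s3y and Ddx3y were listed at 0 FPKM in each library. Kdm5d stood at 0.0328 and 0.00358 FPKM and Uty at 0.605 and 0.118 FPKM, and none of these genes had an allele-assigned read. Uty, the partner of Kdm6a, was thus the one with the highest level, against 8.74 and 2.12 FPKM for Kdm6a itself. Whether Y-linked reads could be assigned to an allele is not given. The lack of allele-assigned reads therefore adds nothing to this check, which rests on FPKM.

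Autosomal relatives of the same pathways drew on each allele. The other subunits of the initiation factor had mean Spretus shares of 44.6% ± 4.71 (SD, n = 2) for Eif2s1 and 48.9% ± 1.85 for Eif2s2. Those of the demethylase genes were 48.8% ± 3.64 for Kdm5a, 52.0% ± 1.32 for Kdm5b and 50.8% ± 3.90 for Kdm6b. The mean share of Eif2s3x, 40.5% ± 1.97, was lower than these means. Single libraries overlapped, since Eif2s1 had 41.25% in library 2 and Eif2s3x had 41.9% in library 1. The mean shares of Kdm5c and Kdm6a, at 26.6% ± 0.0933 and 23.4% ± 0.983, were lower than those of their autosomal relatives. An SD with n = 2 does not measure the uncertainty of a share. That of Kdm5c was 0.0933, while its exact interval in library 2 ran from 18.5 to 36.2%. These differences were not tested.

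Most genes beside the 7 had no Spretus read, which was common on this chromosome. The median of the mean share over all 316 measured X-linked genes was 0%. The nearest measured gene on each side, by the midpoints of the genes, gave 12 neighbours that are not themselves among the 7, at gaps of 3.29 kb to 2844 kb between loci. Of these, 9 had no Spretus read, 2 had 0.201% and 0.368%, and Gpr34, a receptor gene known from microglia, had 14.2% of summed reads. Pooled over all 12, 23 of 3703 reads were Spretus, or 0.621% (exact 95% interval 0.394 to 0.931%). Gpr34 lies inside the longer gene Cask, which begins nearer to Ddx3x, at a gap of 223 kb, and had 2 Spretus reads of 1082, or 0.185%. With nearness taken as the gap between loci, Cask took the place of Gpr34 and the other 11 neighbours were the same, and 7 of 4658 reads were Spretus, or 0.150% (exact 95% interval 0.0604 to 0.309%). The pooled value thus rests largely on Gpr34, whose reads cannot be told apart from those of Cask with certainty.

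The closest pairs lay a few kb apart. Magee1 begins 3.29 kb beyond Pbdc1 and had 0 Spretus reads of 309, which allows a share of up to 0.971%. Iqsec2 lies 7.78 kb from Kdm5c and had 1 Spretus read and 384 C57 reads in library 1, and 0 Spretus reads and 112 C57 reads in library 2. On the other side of Kdm5c, Kantr, a noncoding gene 20.3 kb away, had 0 Spretus reads of 111, which allows up to 2.70%. Klhl15, 21.7 kb from Eif2s3x, had 0 Spretus reads of 195, which allows up to 1.54%, and Zfx, 65.0 kb away on its other side, had 0 of 258, which allows up to 1.16%.

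Fundc1, 590 kb from Kdm6a, had 0 Spretus reads of 176, which allows up to 1.70%, and Gm14636, 877 kb away on its other side, had 0 of 155, which allows up to 1.94%. Apex2, 60.4 kb from Tmem29, had 0 Spretus reads of 192, and Usp9x, 108 kb from Ddx3x and itself reported to escape in mice, had 4 Spretus reads beside 787 C57 reads in library 1 and 0 beside 296 in library 2. Gpr34 lies 338 kb from Ddx3x, with 11 Spretus reads beside 91 C57 reads in library 1 and 7 beside 18 in library 2. Of the 38 measured genes within 1 Mb of any of the 7, 20 had no Spretus read. Since the median of the mean share over all 316 measured X-linked genes was 0%, this does not set these neighbourhoods apart. Among the 38, Gpr34 alone had an interval above 2% in each library, against 7 of the 309 measured X-linked genes outside the 7 (2.27%).

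**Figure D3:**
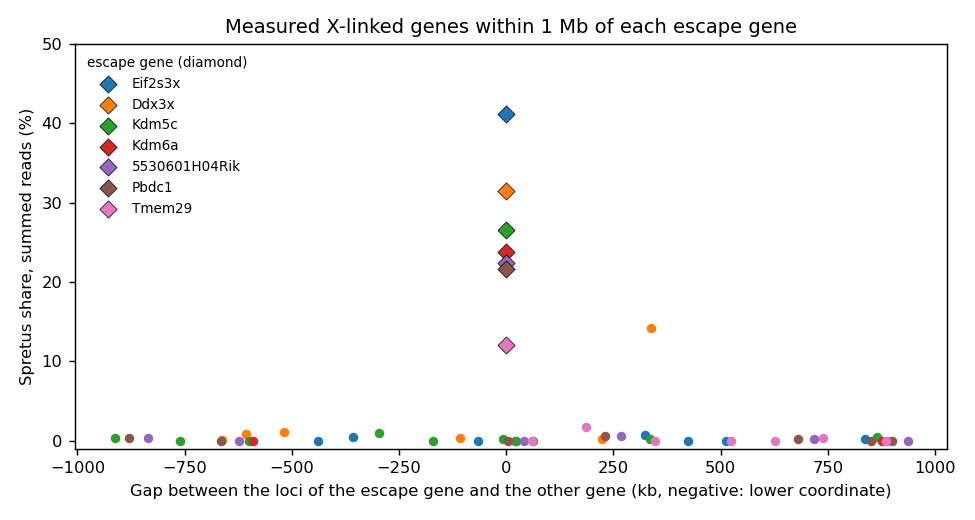
Spretus share of summed reads in percent against the gap in kb between the loci of an escape gene (diamonds, at 0) and the other measured X-linked genes within 1 Mb of it (dots of the same colour). The diamonds lie between 12.1% and 41.1%, while all dots lie at or below 1.81% apart from Gpr34 at 14.2%.

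Regions of allelic methylation were taken from the authors' deposited table, in which a region carries a methylation level from 0 to 1 for each allele. It names no library or coverage, so the values have no error and no test, and the level of an unlisted stretch is not known. On the X chromosome, 519 of 594 regions in the authors' deposited table were higher on Spretus, with a median level of 0.706 on Spretus and 0.0150 on C57. In or within 5 kb of the gene, 3 of the 7 genes had a Spretus-higher region, against 214 of 316 measured X-linked genes (67.7%). No C57-higher region lay that close to any of the 7, against 18 of 316 (5.70%).

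The listed regions lay away from the starts of the 7 genes. No RefSeq start of any of them had a Spretus-higher region within 1 kb, against 153 of 254 measured X-linked genes with a RefSeq start (60.2%). The median distance from a start to the nearest Spretus-higher region was 41406 bp for the 7 genes and 516 bp for the 247 others. Among the 193 others with a promoter window of at least 11 CG dinucleotides, the lowest number that the best window of any of the 7 held, 122 (63.2%) had such a region within 1 kb.

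Ddx3x and Kdm6a had regions shortly inside the gene. In Ddx3x, a region of 570 bp (chrX:13283026-13283596 in mm10) began 2004 bp downstream of the RefSeq start, with a level in the authors' deposited table of 0.795 on Spretus and 0 on C57. A second region of 34 bp (chrX:13284373-13284407) followed, given in the authors' deposited table as 0.950 on Spretus and 0 on C57. In Kdm6a, a region of 757 bp (chrX:18164608-18165365) began 2033 bp downstream of the start, with 0.771 on Spretus and 0.0287 on C57 in the authors' deposited table. For comparison, the interquartile range of the Spretus level over the 519 Spretus-higher X-linked regions of the authors' deposited table was 0.628 to 0.791.

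For the other genes, the nearest Spretus-higher region lay at another gene. That of Pbdc1 (chrX:105121162-105121655) lay 4072 bp past its 3′ end, within 1 kb of Magee1, at 0.518 on Spretus and 0 on C57 in the authors' deposited table. It was also the nearest one for 5530601H04Rik, 51038 bp from its RefSeq start. That start, at X 105070124 on the minus strand, lies inside the counted locus, which ends at 105079609. The distance and promoter window of 5530601H04Rik may thus not describe the 5′ end of the counted locus. By the authors' deposited table, the nearest region of Eif2s3x lay 21035 bp upstream of its start, at Klhl15, with 0.657 on Spretus and 0.0324 on C57. That of Kdm5c lay 94346 bp downstream of the start, within 1 kb of an entry named Kantr. For it the authors' deposited table gave 0.692 on Spretus and 0 on C57. That of Tmem29 lay 128535 bp away, beside Apex2 and Pfkfb1, and the authors' deposited table gave 0.606 on Spretus and 0.00810 on C57. Of the genes at these regions, Magee1, Klhl15 and Apex2 had no Spretus read, as was common among measured X-linked genes. The measured entry named Kantr, at X 152294828 to 152296304, had none either but ends before the region nearest to Kdm5c. Its reads are therefore not those of a gene at that region.

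**Figure D4:**
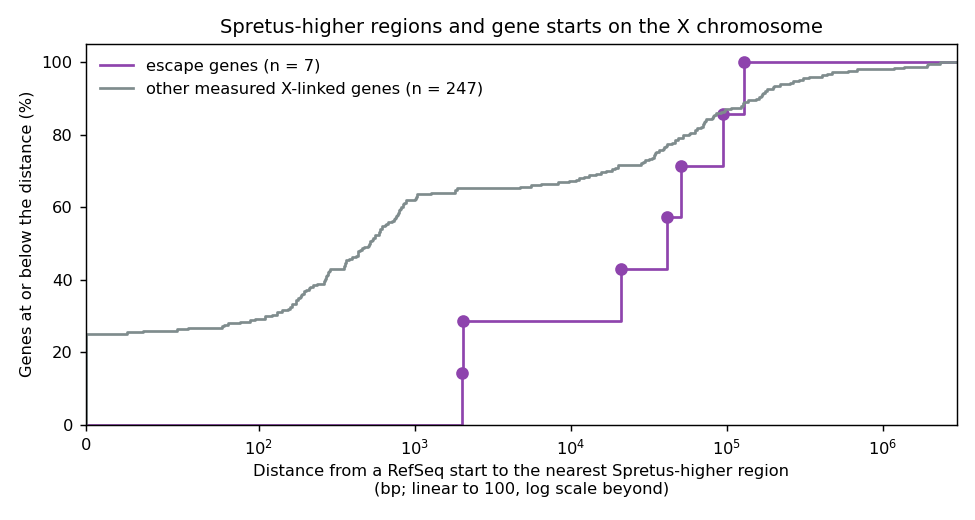
Cumulative percent of genes by the distance in bp from a RefSeq start to the nearest region of higher Spretus methylation, for the 7 escape genes and for 247 other measured X-linked genes (axis linear to 100 bp, log scale beyond). The curve of the escape genes starts at 2004 bp, where 65.2% of the other genes already had a region within 2 kb.

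All 7 genes matched RefSeq promoter windows of 300 bases, 10 windows in all since Tmem29 has 4. The windows held 8 to 25 CG dinucleotides with a median of 14.5, against a median of 16 in 335 windows of other measured X-linked genes and 7 in all 32851 windows. Ddx3x had 25, Eif2s3x and Kdm6a 21 each, Pbdc1 20, Kdm5c 13 and 5530601H04Rik 11. The median of 14.5 counts Tmem29 with 4 of the 10 windows, and the difference from other measured X-linked genes was not tested.

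Motifs of factors common at such promoters were searched as exact letters on either strand, and were chosen after the sequences had been seen. AAGATGGC, the core of the YY1 motif, stands near the 3′ end of the Eif2s3x and Kdm5c windows printed above, in 2 of the 10 windows, against 5.07% of the windows of other measured X-linked genes and 2.75% of all windows. CCGGAAGT, an ETS motif, was found in the windows of 5530601H04Rik and Pbdc1, against 3.88% and 3.89%. GGGCGG, the GC box bound by SP1, was in 6 of the 10 windows, close to the 58.8% of other measured X-linked genes. CACGTG, the E-box, was in the Kdm6a window alone, against 11.9% of the windows of other measured X-linked genes. These motifs other than that of YY1 each hold a CG dinucleotide. Some of the Tmem29 windows overlap each other, so their matches are not separate.

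The X-linked genes outside the 7 and the list of X-inactivation genes whose mean Spretus share lay nearest to the median of the 7, which was 23.4%, were Tceal5, Gpr34 and Gm38020, over 2 libraries. Tceal5 stood at 26.8% ± 2.60 (SD, n = 2), Gpr34 at 19.4% ± 12.2 and Gm38020 at 8.87% ± 1.38. The locus of Gm38020 falls within that of Ftx, which is on that list, so the source of these reads is uncertain. Unlike the 7, Tceal5 had a Spretus-higher region 194 bp from a RefSeq start. Outside the 7, 4 X-linked genes with a RefSeq start had an interval above 2% in each library. Of these 4, Tceal5 and Gpm6b (615 bp) had such a region within 1 kb, and Xist and Ftx did not. The distance was 96241 bp for Ftx and 125800 bp for Xist, so a long distance was not particular to the 7. Both of these genes are on the list of X-inactivation genes. The median of the 4 distances, 48428 bp, lies near none of them. Of 10 other genes reported to escape in mice, 7 were measured, 5 of them with a share of summed reads under 1%.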

How the data were processed

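The authors deposited, per the file headers, for each gene and RNA library, a raw count of C57 reads, a raw count of Spretus reads and an FPKM value that joins the alleles. For methylation the authors deposited a list of regions in which a fraction between 0 and 1 gives each allele's level. Per the submitters' processing notes, build mm10 and the tools TopHat2 2.0.9, Cufflinks 2.1.1, HTSeq 0.6.0 and bedtools 2.2.4 were used, without a role for any. Allele assignment, annotation, strand setting, and the caller, thresholds and coverage of the regions were not given in the sources used here.

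Genes, lists and tests were chosen with earlier results of these data known. Identifiers at several loci were used once. Gene starts were raised by 1 base to count from 1, and regions keep the list's coordinates. The list held 1613 regions, of which 1600 had levels and were used. Shares were computed per library with exact Clopper-Pearson 95% intervals. For a share of 0, the limit is 3 reads of the total. Without molecular identifiers, such intervals and floors cover counting error only. Library shares were compared with Fisher's exact test (scipy 1.17.1, Python 3.11.15), tested on simulated data. Named genes were the 7, Xist, their nearest measured and overlapping genes, Y-linked and autosomal relatives, and the 3 nearest in share. Strand and promoters came from RefSeq GRCm38.p6, and 254 of 316 measured X-linked genes matched. No test of the allele contrast was run, since it chose the genes.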

Additional observations from a re-analysis of the deposited data

How the results depend on the processing

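Of 61 alternatives, 51 left the value within the SD between libraries or the count within 1.5 times. With 2 libraries, a share with a library left out always lies within that SD of the mean. Those alternatives could thus not have moved, and the tally does not measure how stable the shares are. None reversed a direction, but shares and counts have none to reverse. Dividing the odds of a Spretus read by the autosomal odds raised the mean shares to 42.5% for Eif2s3x, 28.3% for Kdm5c, 25.0% for Kdm6a and 23.5% for 5530601H04Rik, each by more than the SD between libraries. Leaving out a library gave 7.14% to 24.8% for Pbdc1 and 4.55% to 13.8% for Tmem29, the low value being library 2 alone. Summed reads gave 21.7% and 12.1%. The number of the 7 genes above the 2% limit was 5 to 7 when a library was left out and 7 with summed reads, and it stayed at 5 with limits of 1%, 5% and 10%. At limits of 5% and 10%, 3 and 2 of the other X-linked genes passed in place of 7. A chi-square test between libraries called 1 gene, Ighg2c, which is not among the 7, in place of 0. Its name was taken after its values were seen. Without the X-inactivation and other escape lists, the remaining X-linked reads were 0.674% Spretus. Within 5 kb of a start, in place of 1 kb, 2 of the 7 genes had a Spretus-higher region, since those of Ddx3x and Kdm6a begin just past 2 kb. With neighbours taken by the gap between loci, their pooled Spretus share was 0.150% in place of 0.621%, since Cask replaced Gpr34. That choice, the distances to starts and the 1 Mb neighbourhood were chosen after seeing the data.

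No paired analysis was possible because the allele contrast chose the genes, so no test of it was run, and no other groups that share library numbers were compared. In library 2, Pbdc1 had 28 reads and Tmem29 and Kdm6a had 44 each, and the coverage behind the methylation levels is unknown.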
